A study of Caenorhabditis elegans with 2 samples.

Results

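Aspartyl proteases are protein-cutting enzymes related to pepsin and to the lysosomal cathepsins D and E. They use a pair of aspartate residues to split peptide bonds, are made as inactive precursors, and work best in acid compartments. In the nematode Caenorhabditis elegans many are products of the intestine, which serves as the digestive organ and is rich in lysosome-like granules, and some act inside lysosomes, where they also take part in the breakdown of dying cells. Of the 10 asp genes considered, 8 had a probe set that the platform annotation assigns to that gene alone, against 17118 genes measured in this way on the array. These were asp-1, asp-3, asp-4, asp-5, asp-6, asp-8, asp-9 and asp-13, read by 11 probe sets of 22548. No probe set named asp-2 or asp-10 alone, so neither was measured.

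RNA came from whole, synchronized worms of the N2 strain with wild-type genotype, raised on plates with E. coli OP50. One group was exposed in liquid S-medium in the dark to nanoparticles of anatase, a crystal form of titanium dioxide, at 500 µg/ml, and the other had no anatase. Each group is 1 Affymetrix array, labelled replicate 3 in both, so there is no replicate error and no test between them. The sources used here give neither age nor length of exposure. The question of the comparison is which transcripts differ when worms meet the particles without light. In whole worms, fewer cells of a type and less RNA per cell cannot be told apart.

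The signals of the aspartyl proteases were close to equal on both arrays, with 1 exception. Differences are given as log2(intensity + 16) on the exposed array minus the same on the control array, a scale that understates the change of dim genes. Between asp-1, at −0.14, and asp-13, at 0.19, lay 7 of the 8 genes, and the dim gene asp-9 was apart at −0.95. The median of the 8 differences was −0.0015, against −0.02 over the 13606 genes bright enough to be compared. It turned to 0.05 once both arrays were set to equal medians and to 0.0058 after a loess correction. The median of all genes turned as well, to 0.03 and 0.0044. The sign of the family median thus depended on the scaling of the arrays, and the family as a whole had no fixed direction. There were 4 genes higher and 4 lower on the exposed array, with asp-4 and asp-6 changing sign in 1 alternative each, where 46.8% of all genes compared were higher and 53.2% lower. No member was at least 2-fold lower, which 3.07% of all genes were, and none at least 2-fold higher, which 1.66% were. Within 1.5-fold of equal signal lay 7 of the 8 members, asp-9 being the other, against 85.7% of all genes. These 7 belong to the brightest 10% of genes, of which 97.6% lay within 1.5-fold, 49.8% were lower and 50.1% higher, so the members' counts are near the background for bright genes.

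**Figure D1:**
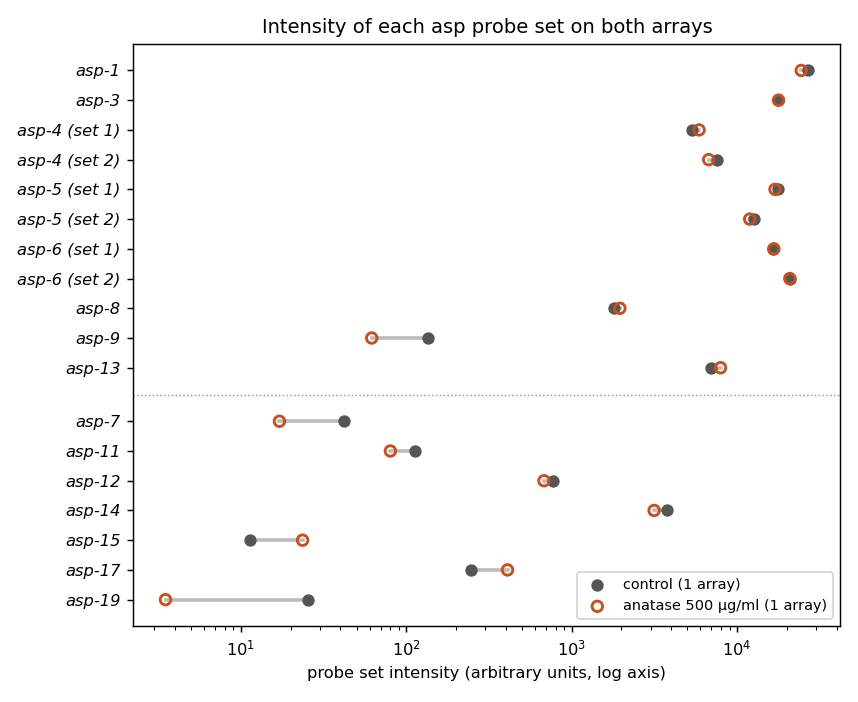
Intensity of each probe set of the asp genes in control worms (filled points) and in worms exposed to anatase (open points), on a log axis, with 1 array per group and no error bars. Above the dotted line are the 11 probe sets of the aspartyl proteases considered, below it the 7 of other asp genes; the points of asp-3 and asp-6 coincide, while those of asp-9, asp-7, asp-15 and asp-19 lie far apart. Positions of different probe sets on the axis are not comparable as transcript amounts.

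The lysosomal pair comes first. asp-3 and asp-4 encode cathepsin-like enzymes of the lysosome that are known in C. elegans for their part in the necrotic death of neurons. asp-3 read 17573.3 in control worms and 17826.9 in exposed worms. The exposed value was 1.44% higher, a log2 difference of 0.02, a size that 89.6% of the 680 genes of like brightness reached or passed. asp-4 was read by 2 probe sets that moved in opposite directions. The first went from 5316.7 to 5893.2, a log2 difference of 0.15, and the second from 7548.2 to 6735.7, a difference of −0.16. Their mean was −0.0079 and turned to 0.05 with the array medians set equal, so asp-4 had no direction that its own probe sets shared. Both are shared probe sets, whose IDs mark that they may also hybridise to transcripts of similar genes.

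asp-1 encodes a cathepsin D-like protease of the intestine. Its probe set gave 26961.5 in control worms and 24437.1 in exposed worms, so the exposed value was lower. The log2 difference of −0.14 corresponds to a change in intensity of −9.36%, and 39% of the 680 genes of like brightness differed by at least as much. This probe set ranked 43 in brightness among the 22548 of the control array, and whether such bright spots were saturated is not recorded in the deposited values.

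asp-5 and asp-6 encode pepsin-family proteases and lie close to each other in the genome. asp-5 was lower on both of its probe sets. The first went from 17701.4 to 16964.4 and the second from 12573.7 to 11926.9, log2 differences of −0.06 and −0.08. asp-6 was nearly the same on both arrays, with 16574.9 and 16693.5 on one probe set and 20852.4 and 20846.4 on the other. Its mean difference was 0.0049, and on the brighter of its probe sets it was −0.00041, the opposite sign. Both probe sets of asp-6 and the first of asp-5 are shared ones, which may also hybridise to transcripts of similar genes. The size of the asp-6 difference was reached or passed by 97.2% of the 680 genes of like brightness, and that of asp-5 by 66.2%.

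The remaining bright members were higher on the exposed array. asp-13, a further gene of the pepsin family, went from 6966.1 to 7944.8 on 1 shared probe set, a log2 difference of 0.19, the highest among the members. asp-8 went from 1791.9 to 1956.9 on 1 probe set, a difference of 0.13. Differences of at least these sizes were found for 25.9% of the 680 genes of like brightness in the case of asp-13 and for 46.2% in the case of asp-8. Both kept their sign with equal array medians, loess correction and quantile normalization, as asp-1, asp-3, asp-5 and asp-9 did. The pseudocount, filter and probe set alternatives could not turn the sign of these genes, as no gene among them had probe sets of opposite sign.

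asp-9 had the lowest value. Its single probe set gave 134.8 in control worms and 61.8 in exposed worms, a change of −54.2% in intensity. On the log2(intensity + 16) scale the difference was −0.95, just short of 2-fold, and with a pseudocount of 1 it was −1.11 and past it. Among the 681 genes of like brightness 2.5% differed by at least as much in either direction and 2.06% were as far below. Over all 13606 genes these shares were 5.3% and 3.47%. The probe set is not of the shared type. Without a detection call, whether the exposed value lay above background is unknown, and no second probe set for asp-9 was present to compare.

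**Figure D2:**
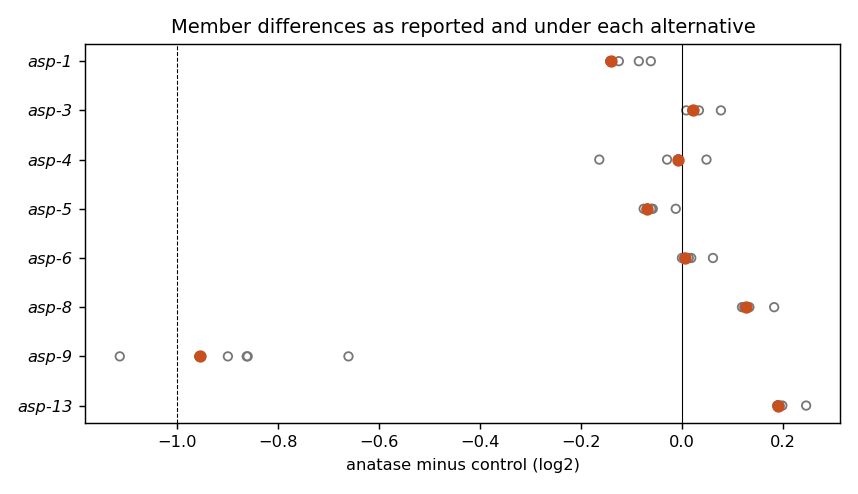
Difference of each aspartyl protease gene (exposed minus control, log2 scale) as reported (filled) and under each alternative that gave a value (open), with a dashed line at 2-fold lower. asp-9 ranged from −1.11 to −0.66 and stayed the lowest of the 8, while asp-4 and asp-6 had values on both sides of 0.

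How far 1 probe set can be trusted was read from the 2293 genes with exactly 2 probe sets. A single probe set there had an SD of 0.18 log2 units in the brightest 25% of genes and of 0.39 in the brightness range between the 25th and 50th percentiles, where asp-9 lies. Of the 7 bright members, only asp-13 differed by more than 0.18, and asp-1, asp-3, asp-4, asp-5, asp-6 and asp-8 by less. In the brightest 10% of genes, where these members lie, the SD was 0.1414. There asp-1, at −0.1417, was just beyond the SD as well as asp-13, and asp-3, asp-4, asp-5, asp-6 and asp-8 stayed within it. The difference of asp-9 was larger than the SD of its brightness range. That SD covers disagreement between probe sets on the same arrays and no difference between worms, so it is no replicate error.

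**Figure D3:**
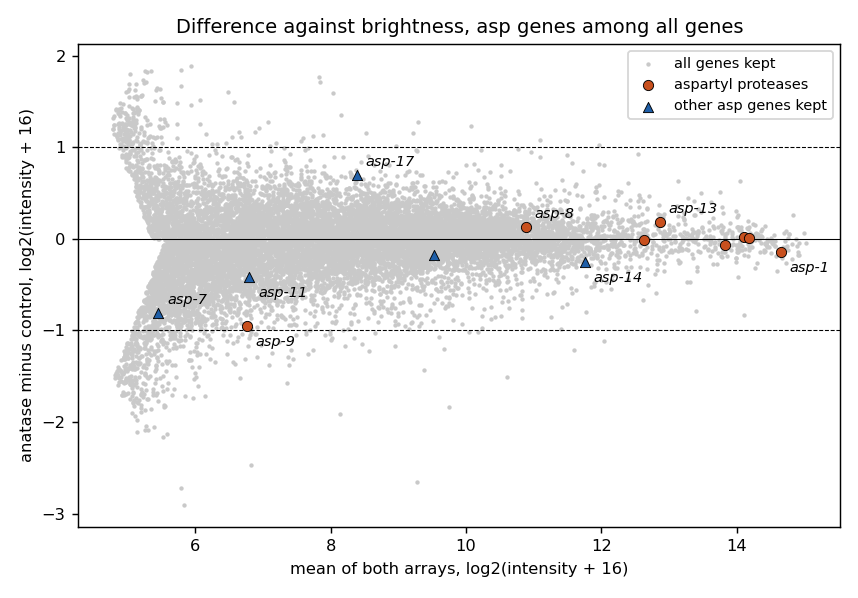
Difference between arrays (exposed minus control, log2(intensity + 16)) against the mean of both arrays, for the 13606 genes kept (grey), the 8 aspartyl proteases (circles) and the 5 other asp genes kept (triangles); dashed lines mark 2-fold. The bright members lie within the narrow right part of the cloud, between −0.14 and 0.19, and asp-9 lies at −0.95 in the wide left part.

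The array also reads 7 asp genes outside the 8, all by 1 probe set each, and 5 of them were bright enough to be compared. Of these, 4 were lower and asp-17 was higher, with a median difference of −0.25. asp-7 was kept through the control array alone, as its exposed value lay below the brightness limit of 25.2, so that it had to be lower; without it 3 of 4 were lower, with a median of −0.21. asp-7 went from 41.8 to 17.1, a difference of −0.80, and 20.6% of genes of like brightness differed by at least as much. asp-17 went from 247.2 to 409.2, a difference of 0.69, a size that 2.94% of genes of like brightness reached. The annotated pseudogene asp-11 was at −0.42, with 112.5 and 80.1. asp-14 went from 3756.9 to 3151.3, a difference of −0.25 on a shared probe set, and asp-12 from 768.9 to 680.3, a difference of −0.17. asp-15, at 11.3 and 23.6, and asp-19, at 25.5 and 3.5, were too dim to be compared. Across the 12 asp genes that reached the limit on both arrays, all 8 members among them, 7 were lower and 5 higher, where 53.2% of all genes compared were lower. Of these 12, asp-9 and asp-17 differed by more than 0.5 log2 units, and both lie outside the brightest 25% of genes.

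Most asp genes lie on chromosome V, 14 of the 18 that carry such a name in the RefSeq gene table of assembly WBcel235, and several lie side by side. asp-6, asp-12, asp-5 and asp-11 follow one another with no other coding gene or pseudogene between them. Along this run the differences were 0.0049, −0.17, −0.07 and −0.42. asp-8, at 0.13, adjoins asp-7, at −0.80, but asp-7 was kept through the control array alone and had to be lower, so their signs are not compared. asp-1, at −0.14, lies with 1 gene between it and asp-15, in a group that also holds asp-17, at 0.69. With asp-7 left aside, the array values gave neighbouring asp genes both small and large differences, and in both directions.

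Acid proteases work beside other enzymes of the gut and lysosome, and these were compared as lists. Cysteine cathepsins, proteases that use a cysteine in place of the aspartates, were lower for 9 of 12 genes, with a median of −0.12 (75% lower, against 53.2% of all genes). The list's largest differences were those of cpr-5, a cathepsin B-like gene, which went from 1058.6 to 621.3, a difference of −0.75, and of cpl-1, the cathepsin L gene, at −0.61. The probe sets of cpl-1 gave −0.74 and −0.48, and all probe sets of cpl-1 and cpr-5 were shared ones. The higher genes of this list were cpr-2, cpr-3 and cpz-2, at 0.40, 0.05 and 0.18, and the probe sets of cpr-3 differed in sign, at 0.10 and −0.0056. Among genes of the vacuolar proton pump, which acidifies the compartments where aspartyl proteases work, 13 of 19 were lower (68.4%, against 53.2% of all genes), with a median of −0.09. In that list vha-12 was at −0.35 and vha-16 at 0.24. Neither list held a gene past 2-fold. Of all genes compared 3.07% were at least 2-fold lower and 1.66% at least 2-fold higher. In the brightest 10% of genes, which held 7 of the 12 cathepsins and 11 of the 19 pump genes, each share was 0.147%.

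Other lysosome genes were evenly split, with 13 of 26 lower and a median of −0.0078. It was above 0 under each of the 3 scalings tried, namely equal medians, loess and quantile normalization, as was the median of all genes. The largest differences of this list were those of glo-3, a gene needed for gut granules, at −0.70, and of cln-3.1, at −0.56. The probe sets of glo-3 disagreed in size, at −1.20 and −0.20. hlh-30, the transcription factor of lysosome genes, had probe sets at 0.38, 0.05 and −0.27, the brightest of them being the lower one, and so no shared direction. Of 12 genes tied to necrotic cell death, 8 were lower (66.7%, against 53.2% of all genes), with a median of −0.12. deg-1, a channel gene, went from 32.7 to 3.6 near the floor of the array, a difference of −1.31. It was kept through the control array alone, so that it had to be lower. Without it 7 of 11 necrosis genes were lower, with a median of −0.10. No gene of the cathepsin, proton pump, lysosome and necrosis lists was then past 2-fold. Of all 12054 genes that reached the limit on both arrays, 79 were at least 2-fold lower and 29 at least 2-fold higher. unc-68, the ryanodine receptor gene, was at 0.43, a mean of probe sets that gave 0.96, −0.0093 and 0.35. The calpain genes clp-1 and tra-3, which encode calcium-dependent proteases, were at 0.24 and −0.25, where the probe sets of clp-1 gave 0.08, 0.73 and −0.08.

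Of 16 intestine markers 11 were lower (68.8%, against 53.2% of all genes), with a median of −0.20. With the array medians set equal, the median of these markers was −0.15 and that of all genes 0.03. The marker intensities summed to 19357.6 in control worms and 16695.2 in exposed worms, a change of −13.8%. pept-1, a peptide transporter gene, was at −0.90, pho-1, an acid phosphatase gene, at −0.71, and elt-2, the main transcription factor of the intestine, at −0.60. ges-1, a gut esterase gene, was at 0.16. Of the intestine markers, eps-8, at −0.08, had 1 of its 4 probe sets near the floor, at 3.5 and 5.9, and ifc-2, at 0.01, had 1 dim probe set that was higher, at 38.1 and 63, and the others lower. The summed intensity of the 8 aspartyl proteases was 93711.2 and 91757.6, a change of −2.08%, and that of the cysteine cathepsins 86165.2 and 75849.3, a change of −12%. Such sums are weighted by the brightest probe sets. asp-1 alone went from 26961.5 to 24437.1, a larger fall than that of the protease sum, while 4 of the 8 members were higher. The largest fall among the cathepsins was that of cpr-4, from 21900.7 to 17609, while 3 of the 12 were higher. A difference between these lists was not tested, as each rests on the same 2 arrays, and the part of intestine signal in any of these values was not tested.

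The medians of markers of other tissues lay between −0.18 and 0.07, where 46.8% of all genes were higher and 53.2% lower. Muscle markers were higher for 8 of 10 genes (median 0.06), with myo-2 at 0.58 and myo-3 at 0.43. Each of these was read by 1 shared probe set, and that of myo-2 was dim, at 46.9 and 78.3. Germline markers were split 5 to 5, with glp-1 and htp-3 at −0.14 each. Their median was −0.0025, which turned to 0.05 with the array medians set equal and was also above 0 on the brightest probe sets. All 6 epidermis markers were lower (median −0.18), with dpy-7 at −0.37 and rol-6 at −0.30. Of 5 neuron markers kept 4 were higher (median 0.07, but −0.19 on the brightest probe sets), with rab-3 at 0.29, a mean of probe sets at 0.64 and −0.07, and snt-1, the lower one, at −0.28; rgef-1, at 2.3 and 6.2, was too dim to be compared.

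**Figure D4:**
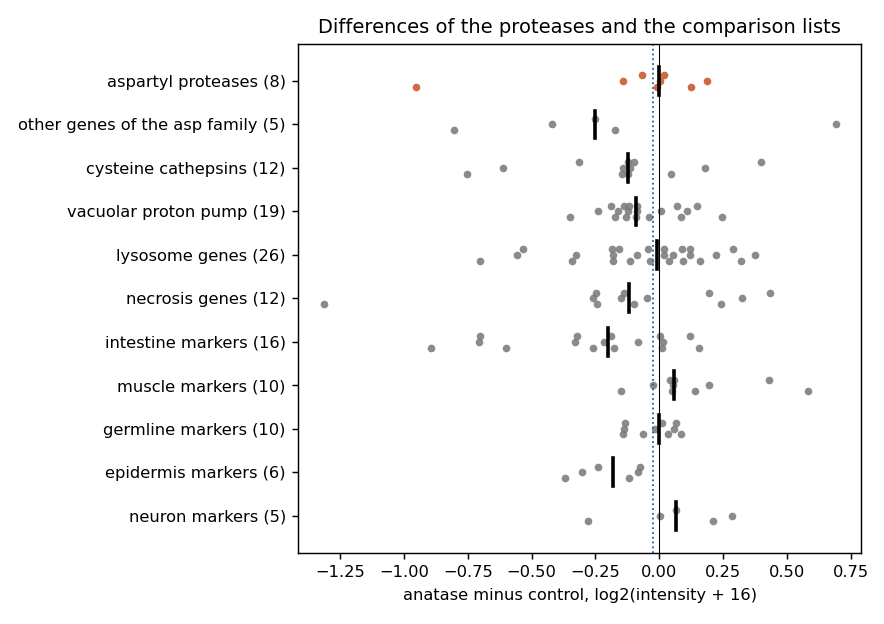
Differences between arrays (exposed minus control, log2(intensity + 16)) for each gene kept in the 8 aspartyl proteases and in the comparison lists, with the number of genes in brackets; black bars are medians and the dotted line is the median of all genes, −0.02. The aspartyl proteases gather around their median of −0.0015 apart from asp-9. Medians of the other lists lie from −0.25 (other asp genes) to 0.07 (neuron markers), with lysosome genes at −0.0078 and germline markers at −0.0025. Cysteine cathepsins and necrosis genes lie at −0.12, epidermis markers at −0.18 and intestine markers at −0.20.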

How the data were processed

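Biotin-labelled cRNA from total RNA was hybridised to Affymetrix C. elegans arrays, per the labels' protocols. The values deposited by the authors are linear intensities, 1 per probe set and array; Transcriptome Analysis Console is named in the submitters' processing notes, with its version, summary algorithm and scaling left unstated in the sources used here. The medians of the arrays were 123 (control) and 118 (exposed). The table holds no detection calls.

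Probe sets were named by the platform annotation where it gives 1 gene (20766; 887 have several and 895 none). A RefSeq gene table (WBcel235) held 99.7% of them, with 0 differing symbols, and served for gene order. Log2(intensity + 16) was averaged over the probe sets of each gene. Genes were kept if, on the array where they were brighter, they reached that array's 25th percentile, an intensity of 31.1 (control) or 25.2 (exposed). Genes of like brightness are those in the same of 20 equal bins of mean log2 value. The number of arrays limits the precision.

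The members and lists were chosen with earlier results of these data known. Named are all asp genes with a probe set, the 2 genes of each list with the largest differences, and, chosen after their values were seen, cpr-2, cpr-3, cpr-4, cpz-2, hlh-30, clp-1, tra-3, elt-2, ges-1, eps-8, ifc-2 and rgef-1. No search for genes of like pattern was made, as 2 arrays give 1 difference per gene. A planned comparison of protein sequences was not made. The steps were tested on simulated data, with changes planted only in genes brighter than asp-9 and larger than any member showed. That test does not bear on differences of the members' size. Alternatives were 3 scalings, pseudocounts of 1 and 64, the brightest probe set of each gene, unshared probe sets only, a brightness filter at the median or none, and thresholds of 1.5-fold and 3-fold. The work used Python 3.11.15 with matplotlib 3.10.9, statsmodels 0.14.6, scipy 1.17.1, pandas 2.3.3 and numpy 2.4.6.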

Additional observations from a re-analysis of the deposited data

How the results depend on the processing

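No paired analysis was possible because there is only 1 control and 1 exposed array. Values were read against the SD of 1 probe set in the 25% band of brightness concerned, 0.18 or 0.39. Under those of the 9 alternatives that gave a value, the difference of each of the 8 members moved by less than that. Of the 7 bright members asp-4 moved most, from −0.0079 to −0.16 on its brighter probe set. The filter and probe set alternatives could not move a member read by 1 probe set. That SD measures disagreement between probe sets, not an effect of processing. The number of members lower was 3 to 5 of 8, and 3 of 5 without shared probe sets. Under these alternatives the share of all genes lower ran from 45.7% to 54.7%. At least 2-fold lower was 1 of the 8 members, asp-9, with a pseudocount of 1, as were 803 of 13575 genes. At least 1.5-fold lower was 1 of the 8, again asp-9, as were 1303 of 13606 genes. Over all genes, 418 were at least 2-fold lower and 226 at least 2-fold higher. A pseudocount of 1 gave 803 lower and 423 higher, one of 64 gave 24 lower and 12 higher, and filtering at the median brightness gave 54 lower and 25 higher. Past 1.5-fold lay 1303 lower and 638 higher genes, and past 3-fold 76 lower and 23 higher. Of the calls 35.1% were higher, 48.7% after the loess correction and 48.3% after quantile normalization. Genes lower at all were 7232, and 4288 with the filter at the median, which keeps fewer genes. Without shared probe sets asp-4, asp-6 and asp-13 had no value, and the median of the other 5 members was −0.08. Low signal limits what asp-9, asp-7, asp-15 and asp-19 can show. Of all genes kept, 12054 reached the brightness limit on both arrays, of which 79 were at least 2-fold lower and 29 at least 2-fold higher. That count and the alternatives for muscle, germline, epidermis and neuron markers were added after the data were seen.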
